A study of Mus musculus with 6 samples.

Results

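The peaks described here were found in GL261 cells, a mouse glioma line. They lay within 2000 bp of a start site of a gene not annotated as protein_coding, called noncoding here, and not within 2000 bp of a protein_coding one. ATACseq marks open chromatin by the transposase Tn5, which cuts DNA where nucleosomes and bound proteins leave it accessible, and a peak is a stretch of genome where the cut fragments pile up above the local background. A consensus peak was a stretch of over 200 bp found in both libraries of an oxygen condition, merged across the conditions. It was kept here if it held such a stretch from all 3 conditions, lay within 2000 bp of a start site of any gene not annotated as protein_coding and did not lie within 2000 bp of a protein_coding start site (GENCODE M21 basic, mm10). The rule found 1692 peaks, 4.10% of the 41308 consensus peaks and 6.0% of the 28197 that held all 3 conditions. The members were chosen by the presence of a called peak in every condition, so a peak seen in fewer conditions is not a member, and no test is made on presence.

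The farthest member from a noncoding start site lay 1999 bp away, beside Gm38563, and the nearest peak outside lay 2003 bp from Gm8849. The member nearest to a coding start site was 2001 bp from it, beside Gm23918, and a peak beside Mir7649 was left out at 1972 bp. Of 2451 consensus peaks at noncoding promoters only, 69.0% held all 3 conditions. The others were 57 peaks at 21% O2 only, 186 at 1% O2 only, 110 at <0.1% O2 only, 298 at both hypoxia levels but not 21% O2, 76 at 21% and 1% O2, and 32 at 21% and <0.1% O2. Over all 41308 consensus peaks 68.3% held all 3 conditions, and 1.86%, 7.66%, 6.10% and 12.2% fell in the first 4 of these classes, where the noncoding promoters had 2.33%, 7.59%, 4.49% and 12.2%.

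The GL261 cells stably carried pEGFP-N1, a plasmid for the green fluorescent protein EGFP, in every group. They were kept for 16 h at 21% O2 (normoxia), at 1% O2 (moderate hypoxia) or at <0.1% O2 (severe hypoxia), and were fixed with formaldehyde before lysis. There were 2 libraries in each condition, 6 in all. The sources used here do not say whether the paired libraries came from separate cultures, so a p-value measures only the spread between these libraries, and all of them come from 1 cell line. The libraries held between 33006 and 43554 deposited peaks, the genome-wide fragment coverage ran from 2.16 to 3.35, with the 4 hypoxic libraries the deepest. Of 8 glioma and stem-cell genes, Sox2, Nes, Vim, Olig2, Gfap, S100b and Cd44 had a promoter peak in 6 of 6 libraries and Fabp7 in 3. The immune genes Ptprc, Aif1, Itgam and Cd3e, the endothelial gene Cdh5 and the neuronal gene Rbfox3 had none, whereas Pecam1 had one in 5 libraries and Syt1 in 6.

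Noncoding genes make RNAs that are not translated. Long noncoding RNAs can act in the nucleus on the chromatin of their own neighbourhood, as Airn and Kcnq1ot1 do at imprinted clusters, while Malat1 and Neat1 gather in nuclear speckles and paraspeckles. Small nuclear RNAs such as U1 and U2 are the RNA core of the spliceosome, small nucleolar RNAs guide the chemical modification of ribosomal RNA and are often carried in the introns of host genes of the Snhg family, and microRNAs lower the output of messenger RNAs. In low oxygen the HIF factors bind a DNA core, ACGTG, and Mir210 is among the best known of the microRNAs that they induce. Promoters of housekeeping genes often lie in CpG islands, stretches where the CpG dinucleotide has not been depleted, and distal elements often carry the TGANTCA site of the AP-1 family.

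The sequences below are the 200 bases around the summit of 9 members that the results turn on. They were read from the GRCm38.p6 genome, the same build as mm10, on the plus strand, and capitals mark ACGTG or its reverse complement CACGT, and TGANTCA. The first 3 belong to members that were higher under severe hypoxia, Gm26611 and Malat1 to members that were lower, Rnu1a1 to a U1 small nuclear RNA locus whose fold and height moved in opposite directions, Mir210 and Snhg15 to strong peaks of known genes, and Gm37477 to a member that differed between the hypoxia levels.
Gm20468 chr17:26861483-26861682: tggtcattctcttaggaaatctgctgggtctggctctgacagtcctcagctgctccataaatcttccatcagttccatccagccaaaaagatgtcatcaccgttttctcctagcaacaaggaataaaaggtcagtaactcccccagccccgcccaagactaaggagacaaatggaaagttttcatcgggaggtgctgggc
Gm11471 chr2:167093583-167093782: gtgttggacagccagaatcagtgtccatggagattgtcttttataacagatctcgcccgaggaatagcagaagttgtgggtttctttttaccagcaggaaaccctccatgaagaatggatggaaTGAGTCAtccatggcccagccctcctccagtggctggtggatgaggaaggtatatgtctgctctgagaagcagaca
2310043L19Rik chr1:177644305-177644504: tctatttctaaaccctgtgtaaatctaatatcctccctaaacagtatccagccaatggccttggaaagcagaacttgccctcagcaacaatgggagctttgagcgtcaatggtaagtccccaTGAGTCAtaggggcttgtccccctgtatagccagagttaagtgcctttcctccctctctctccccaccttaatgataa
Gm26611 chr9:88858885-88859084: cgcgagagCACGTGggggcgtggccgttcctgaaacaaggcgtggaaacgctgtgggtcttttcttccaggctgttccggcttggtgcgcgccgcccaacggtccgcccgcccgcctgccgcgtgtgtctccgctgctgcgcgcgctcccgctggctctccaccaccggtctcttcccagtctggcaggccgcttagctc
Malat1 chr19:5803570-5803769: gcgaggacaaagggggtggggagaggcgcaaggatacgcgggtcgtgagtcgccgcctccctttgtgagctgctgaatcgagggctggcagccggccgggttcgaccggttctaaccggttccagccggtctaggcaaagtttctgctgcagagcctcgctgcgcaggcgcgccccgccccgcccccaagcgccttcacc
Rnu1a1 chr11:87423092-87423291: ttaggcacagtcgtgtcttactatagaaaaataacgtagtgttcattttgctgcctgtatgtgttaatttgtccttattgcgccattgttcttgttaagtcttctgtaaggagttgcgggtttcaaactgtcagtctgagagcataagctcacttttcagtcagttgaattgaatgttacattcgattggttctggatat
Mir210 chr7:141221803-141222002: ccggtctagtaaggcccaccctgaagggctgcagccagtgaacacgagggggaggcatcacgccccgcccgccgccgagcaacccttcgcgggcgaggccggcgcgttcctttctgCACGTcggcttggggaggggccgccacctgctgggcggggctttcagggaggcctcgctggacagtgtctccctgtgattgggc
Snhg15 chr11:6528757-6528956: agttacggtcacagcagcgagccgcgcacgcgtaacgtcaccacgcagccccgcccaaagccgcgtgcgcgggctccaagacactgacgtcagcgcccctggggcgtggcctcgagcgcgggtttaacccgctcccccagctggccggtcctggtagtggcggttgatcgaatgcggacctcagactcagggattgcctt
Gm37477 chr9:91381493-91381692: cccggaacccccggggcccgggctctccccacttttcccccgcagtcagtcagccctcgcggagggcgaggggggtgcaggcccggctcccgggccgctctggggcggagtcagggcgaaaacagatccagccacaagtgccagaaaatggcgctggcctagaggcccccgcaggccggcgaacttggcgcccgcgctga

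The members had 1850 noncoding genes in reach, with 1 gene for 1494 peaks and several for 198. By the class of the nearest gene, 581 were at lincRNA genes, 296 at pseudogenes, 235 at antisense genes, 188 at TEC loci (transcripts still to be tested experimentally), 154 at other long noncoding genes, 147 at small RNA genes other than microRNAs, 90 at microRNA genes and 1 at an immune receptor segment. For 282 peaks every gene in reach was a pseudogene. The start site lay inside 720 peaks and beside the other 972, and in 763 peaks the summit was within 500 bp of it. Most of the peaks, 1169, lay outside coding genes, with 487 in an intron and 36 in an exon of one.

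These peaks did not look like coding promoters in their sequence. Their median width was 792 bp (range 285 to 3920), their median GC content 50.5%, and their median observed-to-expected CpG ratio 0.299, against 0.736 in 11217 coding promoter peaks and 0.237 in 15288 peaks away from promoters. A CpG ratio of at least 0.6 was found in 14.8% of them, against 75.2% of coding promoter peaks and 3.72% of peaks away from promoters. The classes ranged from 29.9% of the other long noncoding genes, which include Snhg8 and Snhg15, and 16.7% of lincRNA genes to 10.2% of small RNA genes. The summit lay at a median of 646.5 bp from the noncoding start site and 28.6 kb from the nearest coding one. Over all members the mean fold rank, defined next, ran from 0.171 to 99.998.

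The level of a peak was its deposited fold, the fragment pileup at the summit over the local background, and its rank was the percentile of that fold among the 28432 peaks present in all 6 libraries. The median rank of the members was 42.9 and 43.9 in normoxia, 43.3 and 43.2 in moderate hypoxia, and 45.2 and 45.7 in severe hypoxia. Coding promoter peaks stood at 63.9 and 63.0, at 61.7 and 61.8, and at 55.4 and 57.1, and peaks away from promoters at 42.1 and 42.8, at 43.6 and 43.9, and at 47.6 and 46.2. By fold the noncoding promoters thus lay near distal peaks in every library, and the 2 severe libraries were above the other 4. The members' median rank was 44.4 ± 1.28 (SD, n = 4) in hypoxia and 43.4 ± 0.701 (SD, n = 2) at 21% O2, a difference of 0.971 (two-sided exact permutation p = 0.40, where 4 against 2 libraries cannot give a p below 0.0667). With the 2 severe libraries alone the difference was 2.07 (exact permutation p = 0.33, the smallest that 2 against 2 allows). A bulk assay cannot tell apart fewer cells with an open site and a less open site in every cell.

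**Figure D1:**
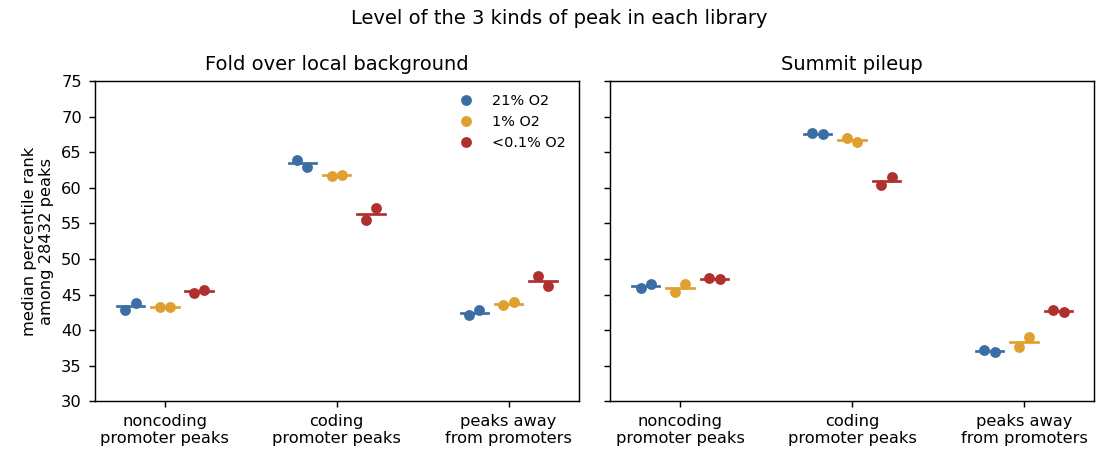
Median percentile rank, among 28432 peaks, of noncoding promoter peaks, coding promoter peaks and peaks away from promoters, by fold and by summit pileup, with a point for each of the 2 libraries of each O2 condition. Noncoding promoter peaks stayed between 42.9 and 45.7 by fold, while coding promoter peaks went from 63.9 and 63.0 at 21% O2 to 55.4 and 57.1 at <0.1% O2.

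The pileup at the summit, in whole fragments, is the numerator of the fold, and it was recovered for every deposited peak. By pileup the members ranked 46.0 and 46.5 in normoxia, 45.4 and 46.5 in moderate hypoxia, and 47.3 and 47.1 in severe hypoxia. Peaks away from promoters ranked 37.3 and 37.0 in normoxia, 37.6 and 39.0 in moderate hypoxia, and 42.8 and 42.5 in severe hypoxia, so that by pileup the members stood above them in every library. Peaks with the start site inside ranked higher by fold than those beside it, at 49.1 and 50.5 against 37.9 and 39.3 at 21% O2. The former stood at 47.4 and 48.8 at <0.1% O2 and the latter at 43.3 and 42.7, so that the gap was narrower under severe hypoxia. For each of these groups 2 against 2 libraries give an exact permutation p of 0.33 at the least, which these differences reached.

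Each of the 28432 peaks was then tested between conditions with limma on the log2 fold after quantile normalisation, with Benjamini-Hochberg adjustment over all of them, and a peak was called at an adjusted p under 0.05. Quantile normalisation gives every library the same distribution, so a shift shared by all peaks would not be seen. At <0.1% O2, 129 members were higher and 79 lower than at 21% O2, that is 7.62% and 4.67% of them. Over all peaks tested 6.74% were called higher and 6.15% lower, and over coding promoter peaks 2.67% and 9.89%. With the GC trend subtracted the members had 109 higher and 86 lower, 6.44% and 5.08%, against 6.44% and 5.202% of all peaks, so that both shares were then near the background. The median log2 difference of the members was 0.0079, against -0.066 in coding promoter peaks and 0.042 in peaks away from promoters. After subtraction of the GC trend these were -0.0099, -0.017 and 0.012. The median log2 fold of noncoding less that of coding promoter peaks, taken within each library, averaged -0.156 ± 0.012 (SD, n = 2) in severe hypoxia and -0.284 ± 0.019 (SD, n = 2) in normoxia, a gap that changed by 0.128 (exact permutation p = 0.333, the smallest possible with 2 against 2 libraries), by 0.24 on the pileup and by 0.052 once the trend with GC content was subtracted.

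The counts depended on each library. Without a severe library they were 22 higher and 15 lower (replicate 1) or 13 and 5 (replicate 2), where the lone library is assumed to vary like the others. They were 76 and 40 without 21% O2 replicate 1, 110 and 47 without its replicate 2, and 95 and 49 without either of the 1% O2 libraries. All 129 and all 79 kept their direction in every such fit. They had been selected by their difference in these same libraries, so this is no support. The shares of all peaks called in these fits were not counted, so the changes in count are not a result about the members. At an unadjusted p under 0.05, 521 members differed. The share of all peaks at that threshold was not counted, so this number is not a result about the members.

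The same test on the summit pileup called 434 members higher and 352 lower at <0.1% O2, where 23.7% of all peaks were higher and 24.3% lower, and the shares of the members were 25.7% and 20.8%. The balance turned with the GC trend subtracted, to 370 higher and 392 lower (21.9% and 23.2%), against 23.5% and 21.5% of all peaks. Of the 129 members higher by fold, 110 had a higher pileup, 99 were called higher by it and 11 were called lower by it. Of the 79 members lower by fold, 78 had a lower pileup and 68 were called lower by it. The 11 in conflict are described with the small nuclear RNA loci.

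**Figure D2:**
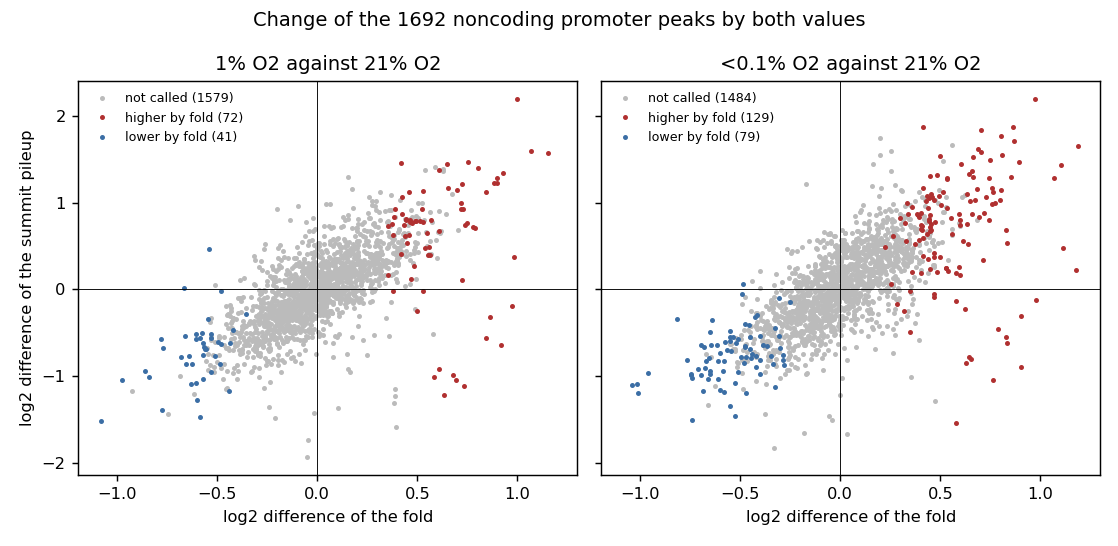
Log2 difference of the fold (horizontal) and of the summit pileup (vertical) of the 1692 members, at 1% O2 and at <0.1% O2 against 21% O2, 1 point a peak, coloured by the call on the fold (72 higher and 41 lower at 1% O2, 129 and 79 at <0.1% O2). Most called points lie in the quadrants where both values have the same sign, with 11 called in opposite directions at <0.1% O2.

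The largest rises under severe hypoxia, named by size among the calls whose pileup moved in the same direction, were at n-R5s213, Rnu2-10, Snora73a, Mir7043, Gm38321, Gm20468, Gm11471 and 2310043L19Rik. They came from 7 different annotated types, from ribosomal RNA to pseudogene. The peak beside n-R5s213, a 5S ribosomal RNA gene copy in an intron of the collagen gene Col4a3 (chr1:82634510-82634939), had fold ranks of 11.2 and 16.4 in normoxia, 90.5 and 59.96 in moderate hypoxia, and 84.2 and 85.3 in severe hypoxia. The normoxic and hypoxic libraries did not overlap. Its log2 fold was 1.19 ± 0.14 higher (SE; adjusted p = 0.00217), and its pileup was higher by 1.65 (adjusted p = 2.28e-07).

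Gm20468 is a lincRNA gene, and the peak over its start site (chr17:26861130-26862112), 20.02 kb from the start of Nkx2-5, a homeobox gene of heart development, was the member whose call at both hypoxia levels held whichever library was left out. Its summit pileup was 18 and 23 in normoxia, 142 and 132 in moderate hypoxia, and 122 and 118 in severe hypoxia. The background around it was also higher in hypoxia, at 2.16 and 2.36 in normoxia, 8.59 and 7.67 in moderate hypoxia, and 7.61 and 8.33 in severe hypoxia. The normoxic values are the genome-wide coverage of those libraries, the lowest background in them, so the normoxic folds rest on that floor. The log2 fold was 0.97 ± 0.10 higher at <0.1% O2 (adjusted p = 0.00142) and 1.00 ± 0.10 at 1% O2 (adjusted p = 0.00181), and the log2 pileup was 2.19 higher at each. No hypoxic library came near the normoxic ones, and the 2 hypoxia levels lay together.

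Mir7043 is a microRNA gene in an intron of Rassf4, and the nearest coding start site is that of Depp1, which FOXO factors induce, at 6.11 kb. Its peak (chr6:116644144-116644817) had fold ranks of 13.9 and 10.02 in normoxia, 54 and 39.5 in moderate hypoxia, and 79.2 and 69.6 in severe hypoxia. Its log2 fold was 1.10 ± 0.13 higher at <0.1% O2 (adjusted p = 0.00213). Gm38321, a TEC locus in an intron of the potassium channel gene Kcnq1 (chr7:143124087-143124647), had ranks of 7.01 and 3.58 in normoxia, 52 and 57.5 in moderate hypoxia, and 47.6 and 49.4 in severe hypoxia, which is a log2 difference of 1.07 ± 0.13 (adjusted p = 0.00271). At both peaks every hypoxic library was above both normoxic ones.

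At Gm11471, a processed pseudogene (chr2:167093387-167093934), the pileups were 19 and 16 in normoxia, 62 and 62 in moderate hypoxia, and 74 and 57 in severe hypoxia. The log2 fold was 0.90 ± 0.14 higher (adjusted p = 0.00644). At 2310043L19Rik, a lincRNA gene (chr1:177643974-177644640), they were 24 and 22 in normoxia, 104 and 88 in moderate hypoxia, and 107 and 94 in severe hypoxia, and the log2 fold was 0.87 ± 0.13 higher (adjusted p = 0.00500). The summit windows of both hold a TGANTCA site. The call at Gm11471 was lost without <0.1% O2 replicate 1 (log2 difference 0.82, adjusted p = 0.056), and that at 2310043L19Rik without its replicate 2 (0.86, adjusted p = 0.051).

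Snora73a and Rnu2-10 belong to the small RNA loci. Snora73a guides the processing of ribosomal RNA, and its peak at the Snhg3 host gene (chr4:132354369-132354835) had fold ranks of 0.776 and 4.84 in normoxia, 25.7 and 29.1 in moderate hypoxia, and 29.1 and 40.1 in severe hypoxia. The log2 fold was 1.11 ± 0.18 higher (adjusted p = 0.00697) and the log2 pileup 0.48 ± 0.16 (adjusted p = 0.0186). Rnu2-10 is a U2 small nuclear RNA gene whose peak (chr11:101657770-101660516) had pileups of 319 and 369 in normoxia, 421 and 427 in moderate hypoxia, and 594 and 491 in severe hypoxia. Its log2 fold was 1.18 ± 0.14 higher (adjusted p = 0.00213), its background was 66.1 and 84.4 in normoxia, 39.95 and 41.7 in moderate hypoxia, and 52.2 and 48.7 in severe hypoxia, and the log2 pileup was higher by 0.23 (adjusted p = 0.0276). Without <0.1% O2 replicate 2 the Snora73a difference was 1.02 and no longer called (adjusted p = 0.064).

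The largest falls were at Gm49001, Gm7229, 4930401A07Rik, Gm26611, Malat1, 4930518P08Rik, Gm44386 and 4921522A10Rik, 6 of them lincRNA genes. Gm49001, a transcribed pseudogene in an intron of Enox1 (chr14:77343768-77344130), had fold ranks of 51.4 and 32.2 in normoxia, 18.5 and 25.1 in moderate hypoxia, and 4.12 and 3.73 in severe hypoxia. Its log2 difference at <0.1% O2 was -1.04 ± 0.15 (SE; adjusted p = 0.00527), and it was the 1 fall still called whichever library was left out. At 1% O2 its ranks lay below those at 21% O2, and the difference of -0.37 ± 0.15 did not pass (adjusted p = 0.170).

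At Gm26611 (chr9:88858783-88859143), annotated as a lincRNA gene, the ranks were 87.3 and 99.6 in normoxia, 90.4 and 89.5 in moderate hypoxia, and 47 and 24.1 in severe hypoxia. By fold rank the peak was high at 21% and 1% O2 and lower in both severe libraries, with a log2 fold of -0.96 ± 0.15 (adjusted p = 0.00595) and a difference of -0.16 ± 0.15 at 1% O2 (adjusted p = 0.537). At 4930401A07Rik (chr10:92400514-92401034) the ranks were 40.9 and 55.5 in normoxia, 32.4 and 17.5 in moderate hypoxia, and 7.26 and 4.71 in severe hypoxia, a log2 difference of -1.01 ± 0.16 at <0.1% O2 (adjusted p = 0.00629). Neither set of severe libraries overlapped with the normoxic ones. Without <0.1% O2 replicate 2 the differences were -0.76 at Gm26611 (adjusted p = 0.052) and -0.94 at 4930401A07Rik (adjusted p = 0.055), no longer called.

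Malat1 had 2 member peaks. The one upstream of the gene's start (chr19:5803319-5804090, 998 bp from it to the summit, with Gm37376 also in reach) had pileups of 62 and 91 in normoxia, 105 and 80 in moderate hypoxia, and 95 and 61 in severe hypoxia. Its local background was 11.5 and 13 in normoxia, 20.5 and 16.6 in moderate hypoxia, and 23.7 and 20.1 in severe hypoxia. The pileups of the groups overlapped, and the backgrounds of the normoxic libraries were below all others. The log2 fold was -0.81 ± 0.17 at <0.1% O2 (adjusted p = 0.0152), and the log2 pileup of -0.35 ± 0.16 was not called (adjusted p = 0.0803). The other, at the 3′ end of the gene (chr19:5794161-5795808, 1851 bp from the start of a shorter transcript), had pileups of 63 and 60 in normoxia, 201 and 150 in moderate hypoxia, and 203 and 164 in severe hypoxia. There the log2 pileup was 1.21 ± 0.14 higher (adjusted p = 1.4e-07) while the log2 fold differed by -0.17 ± 0.18 (adjusted p = 0.551). The call on the upstream peak was lost without 21% O2 replicate 2 (-0.67) and without <0.1% O2 replicate 2 (-0.63). The fold and the pileup thus gave no single direction at Malat1.

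The other 4 large falls were Gm7229 (-1.01), 4930518P08Rik (-0.77), Gm44386 (-0.75) and 4921522A10Rik (-0.75). Each lost its call without <0.1% O2 replicate 2, with differences of -0.999, -0.79, -0.87 and -0.57, and 4930518P08Rik and Gm44386 also without replicate 1, with -0.74 and -0.63.

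**Figure D3:**
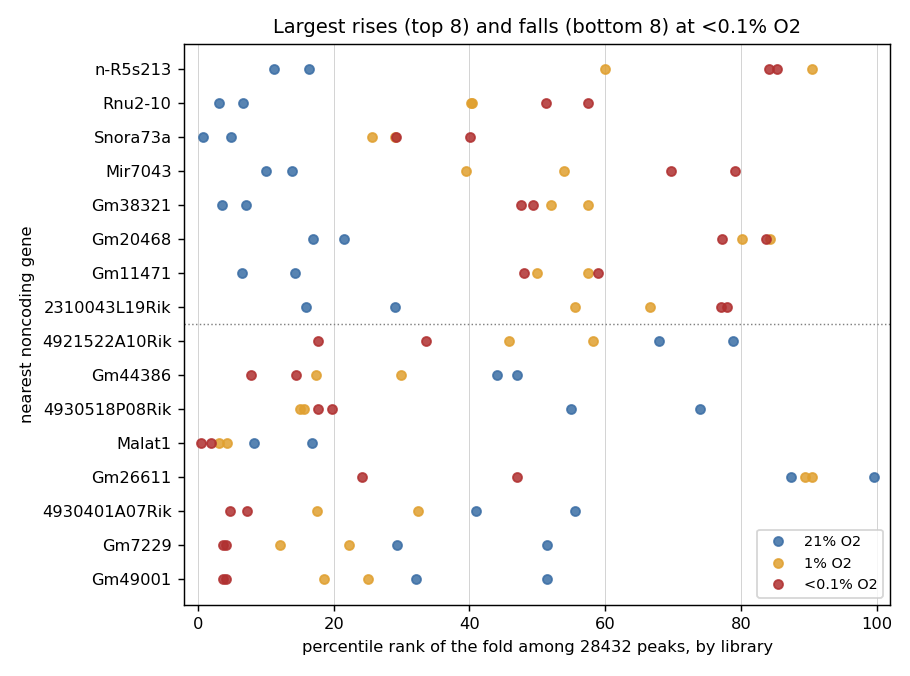
Percentile rank of the fold in each of the 6 libraries for the members with the 8 largest rises (top) and 8 largest falls (bottom) at <0.1% O2, 1 row a peak, labelled by its nearest noncoding gene. At each of these peaks the 2 severe libraries lie apart from the 2 normoxic ones, and at Gm26611 the 1% O2 libraries lie with normoxia.

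At 1% O2, 72 members were higher and 41 lower than at 21% O2, 4.26% and 2.42% of them. Over all peaks tested 3.97% were higher and 2.18% lower, so both shares were near the background. Without a 1% O2 library the counts were 2 higher and 1 lower (replicate 1) or 2 and 0 (replicate 2). They were 45 and 10 without 21% O2 replicate 1, 91 and 27 without its replicate 2, 47 and 20 without <0.1% O2 replicate 1 and 45 and 16 without its replicate 2. At an unadjusted p under 0.05, 476 members differed. The shares of all peaks at that threshold and in the fits without a library were not counted. Neither the 476 nor the drops in count are thus a result about the members. By pileup 288 were higher and 335 lower, where 18.4% of all peaks were higher and 17.7% lower, and 50 of the 72 and 34 of the 41 were called in the same direction by both values. In both contrasts the normoxic libraries are the same 2, so the contrasts are not independent.

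The largest rises at 1% O2 were at Gm38321 (1.16), n-R5s213 (1.07), Gm20468 (1.00), Snora73a (0.98), Gm25092 (0.93), Gm11471 (0.90), Gm13528 (0.90) and Gm35135 (0.88), all as log2 differences of the fold. At Gm25092, a small nucleolar RNA gene (chr17:24021229-24021940), the ranks were 23.6 and 14 in normoxia, 71.8 and 79.7 in moderate hypoxia, and 53.5 and 57.8 in severe hypoxia, with an SE of 0.12 on the difference and an adjusted p of 0.00544. Gm13528 is an antisense gene in an intron of Ralgps1, whose nearest coding start site belongs to Angptl2, a secreted angiopoietin-like protein, and Gm35135 is a lincRNA gene. Gm20468 alone of these 8 kept its call without either 1% O2 library, while the sizes of the other 7 then lay between 0.83 and 1.11 where the call was lost.

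The largest falls at 1% O2 were at Gm48161 (-1.08), Gm37331 (-0.98), 4930518P08Rik (-0.86), Gm14857 (-0.84), Gm29083 (-0.78), Gm12518 (-0.77), Gm6450 (-0.77) and BC039966 (-0.68). Gm48161 lies in an intron of Agtr1a, an angiotensin receptor (chr13:30368309-30369293), and its ranks were 60.4 and 78.1 in normoxia, 11.9 and 9.36 in moderate hypoxia, and 40.6 and 42.6 in severe hypoxia. The 1% O2 libraries were the lowest and the severe ones lay between, and the difference at <0.1% O2 of -0.39 ± 0.13 was not called (adjusted p = 0.0745). At Gm29083, antisense in an intron of Nrp2, a receptor of semaphorins and VEGF, the ranks were 15 and 20.4 in normoxia, 0.849 and 4.03 in moderate hypoxia, and 6.51 and 7.61 in severe hypoxia. All 8 falls lost their call without 1 or either of the 1% O2 libraries, and the differences then lay between -1.18 and -0.54. The call was also lost at Gm37331 without 21% O2 replicate 1 (-0.95), at Gm6450 without either normoxic library (-0.75 and -0.81), at BC039966 without either normoxic library (-0.72 and -0.66) or <0.1% O2 replicate 2 (-0.68) and with the GC trend subtracted (-0.66), and at Gm29083 whichever library was left out (-0.99 to -0.55).

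Between the hypoxia levels 1 member was higher and 2 were lower at <0.1% O2 than at 1% O2, where 0.109% of all peaks were higher and 0.215% lower. By pileup 257 were higher and 122 lower, against 12.5% and 12.8% of all peaks. By fold 304 members differed at an unadjusted p under 0.05, for which the share of all peaks was not counted. At Gm37477, a TEC locus in an intron of the zinc finger gene Zic4 (chr9:91381338-91382018), the pileups were 37 and 43 in normoxia, 63 and 55 in moderate hypoxia, and 22 and 18 in severe hypoxia. The log2 fold was -0.97 ± 0.14 at <0.1% against 1% O2 (adjusted p = 0.0336). Gm15247, in an intron of Mid1 (chrX:169986733-169987283), had fold ranks of 43.7 and 57 in normoxia, 53 and 48.7 in moderate hypoxia, and 12.6 and 13 in severe hypoxia and a log2 difference of -0.75 ± 0.13 (adjusted p = 0.0457). Neither was called at 1% against 21% O2 (adjusted p = 0.321 and 0.975), and both were lowest in the severe libraries.

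Gm14857, a processed pseudogene (chrX:106284325-106284948), had ranks of 74.9 and 72.8 in normoxia, 22.3 and 19.4 in moderate hypoxia, and 78.3 and 61.9 in severe hypoxia. It was low at 1% O2 and not at either other condition, with a log2 fold 0.79 ± 0.11 higher at <0.1% than at 1% O2 (adjusted p = 0.0350). None of these 3 calls held when a library of 1% or <0.1% O2 was left out, when the differences ran from -1.04 to -0.90 at Gm37477, from -0.78 to -0.72 at Gm15247 and from 0.68 to 0.90 at Gm14857. They were -0.83, -0.71 and 0.70 with the GC trend subtracted and not called (adjusted p = 0.060, 0.069 and 0.060). The call at Gm15247 was also lost when replicate number was added to the fit as a block.

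The calls by fold were next counted by class of noncoding gene. At <0.1% O2, 21 of 147 small RNA peaks were higher (14.3%), against 6.74% of all peaks, and 7 were lower. By pileup 38 were higher and 35 lower (25.9% and 23.8%), against 23.7% and 24.3% of all peaks, and with the GC trend subtracted the fold gave 16 and 8. Of 296 pseudogene peaks 28 were higher and 16 lower, of 235 antisense peaks 23 and 11, and of 90 microRNA peaks 9 and 3. The 581 lincRNA peaks were called as often in either direction, 27 and 27. The 154 at other long noncoding genes had 11 and 8, and the 188 TEC peaks 10 and 7. By pileup the pseudogene peaks had 92 higher and 49 lower, the antisense 68 and 45, the microRNA 27 and 16, the lincRNA 130 and 119, the TEC 43 and 39, and those at other long noncoding genes 35 and 49. The difference between classes was not tested. Of the 972 members with the start site beside the peak 84 were higher and 35 lower (8.64% and 3.601%), and of the 720 with the start site inside 45 and 44 (6.25% and 6.11%), against 6.74% and 6.15% of all peaks. By pileup the former had 288 and 149 (29.6% and 15.3%) and the latter 146 and 203 (20.3% and 28.2%), against 23.7% and 24.3%.

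**Figure D4:**
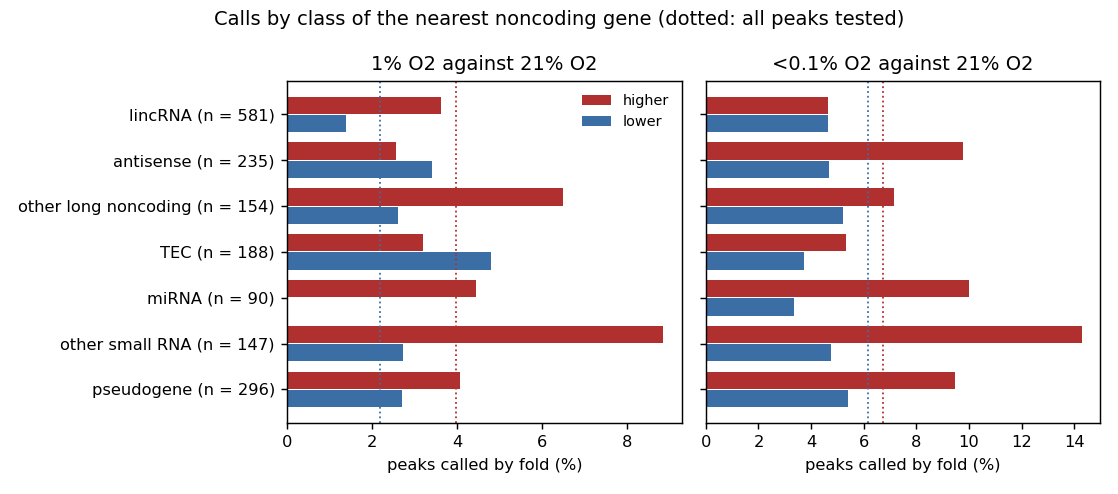
Percent of members called higher and lower by fold, by class of the nearest noncoding gene, at 1% O2 and at <0.1% O2 against 21% O2, with the share over all peaks tested as dotted lines. At <0.1% O2 small RNA genes had 14.3% higher by fold, though 25.9% by pileup against 23.7% of all peaks, and lincRNA genes 4.65% in either direction.

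Within the small RNA class the small nuclear RNA loci were singled out after their values were seen. These genes are present in near-identical copies, and reads from copies may be placed together or lost by the mapping quality filter, so their values are uncertain. Of 64 such members, 10 were higher and 6 lower by fold at <0.1% O2, while 13 were higher and 24 lower by pileup. The shares by fold were 15.6% and 9.38%, against 6.74% and 6.15% of all peaks, and by pileup 20.3% and 37.5%, against 23.7% and 24.3%. The 45 small nucleolar RNA members had 9 higher and 1 lower by fold (20% and 2.22%). By pileup they had 15 and 9 (33.3% and 20%). Of the 11 members called higher by fold and lower by pileup, 8 were at small nuclear RNA genes (Gm25360, Gm25939, Gm23444, Rnu1a1, Gm22068, Gm22973, Gm25099 and Rnu5g). The others were at Rnu3b4, a U3 small nucleolar RNA gene, at D230017M19Rik and at 2410006H16Rik. At 1% O2, 10 members were called higher by fold and lower by pileup and 1, Gm33524, the other way, and 6 of the 11 were at small nuclear RNA genes.

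Rnu1a1 encodes U1, which recognises the 5′ splice site, and its peak (chr11:87422634-87424352) had summit pileups of 289 and 371 in normoxia, 222 and 239 in moderate hypoxia, and 309 and 266 in severe hypoxia. The local background was 82.5 and 107 in normoxia, 38.2 and 41.2 in moderate hypoxia, and 48 and 43.8 in severe hypoxia. The background was lower in all 4 hypoxic libraries although these were deeper, and the log2 fold was 0.83 ± 0.13 higher at <0.1% O2 (adjusted p = 0.00700) while the log2 pileup was -0.55 ± 0.09 (adjusted p = 2.68e-05). At Rnu5g, a U5 gene (chr9:65200181-65202195), the background was 47.5 and 60.2 in normoxia, 24.7 and 24.1 in moderate hypoxia, and 29.4 and 26.2 in severe hypoxia. Its pileups were 172 and 223 in normoxia, 180 and 185 in moderate hypoxia, and 203 and 186 in severe hypoxia.

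A background lower in all 4 hypoxic libraries than in both normoxic ones was found at 17 of the 64 small nuclear RNA members (26.6%) and at 5 of 45 small nucleolar RNA members (11.1%). It was found at 36 of the 1628 members left when these 64 are taken out (2.21%), at 2.67% of coding promoter peaks and at 1.69% of all peaks tested. The fall was in a minority, since the median log2 background of the 64 rose by 0.364 at <0.1% O2, against 0.381 over all peaks. Some of the 17 are neighbouring copies with near-equal backgrounds, such as Rnu1a1 and Gm22068, and are not independent loci. At Gm25939 the background went from 83.9 and 124 in normoxia to 34.7 and 33.9 in moderate and 39.2 and 33.3 in severe hypoxia. MACS2 was run without a control library, so the background of a wide signal partly holds its own fragments, and the part of that in these values was not tested.

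Lists of known noncoding genes were read next. Each list was searched for members in reach of a gene on it, and the shares of all peaks called, given above, are the background for each count. The snoRNA host genes had 10 member peaks for 10 of 19 annotated genes. By fold 2 were higher and 0 lower at <0.1% O2, with a median of 0.21, whereas by pileup 1 was higher and 8 lower, with a median of -0.53. Over all peaks tested the medians were -0.0047 and -0.0098.

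The 2 called by fold were Snora73a's peak at Snhg3 and Snhg15. Snhg15 (chr11:6528331-6529209) was among the strong members, with fold ranks of 79.5 and 86.6 in normoxia, 99.6 and 99.6 in moderate hypoxia, and 97.6 and 96.9 in severe hypoxia, and a log2 fold 0.28 ± 0.07 higher at <0.1% O2 (adjusted p = 0.0218) but a log2 pileup of -0.17 ± 0.09 (adjusted p = 0.144). Snhg8 (chr3:123508062-123509257) had pileups of 328 and 440 in normoxia, 368 and 370 in moderate hypoxia, and 302 and 291 in severe hypoxia. After scaling between libraries its log2 pileup differed by -0.74 ± 0.08 (SE; adjusted p = 8.63e-08), and its log2 fold was 0.26 ± 0.11 (adjusted p = 0.127). The Snhg15 call was lost without 21% O2 replicate 1 (0.23) and without either severe library (0.27 and 0.29). At Snhg6, Snhg12, Snhg17, Dancr, Snhg5 and Snhg20 the pileup was also called lower, with log2 differences of -1.03, -0.71, -0.53, -0.46, -0.39 and -0.54, and the fold was not called.

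MicroRNA genes and their hosts had 14 member peaks, of which 1 was higher and 2 lower by fold at <0.1% O2 and 3 were higher and 7 lower by pileup. D630033A02Rik, at the let-7i locus (chr10:122985460-122986572), had pileups of 149 and 206 in normoxia, 132 and 121 in moderate hypoxia, and 87 and 73 in severe hypoxia. It fell by both values, with a log2 fold of -0.52 ± 0.14 (adjusted p = 0.0327) and a log2 pileup of -1.46 ± 0.13 (adjusted p = 1.49e-09). Every severe library was below every normoxic one there, but the call on the fold was lost whichever library was left out, with differences between -0.58 and -0.46, and with the GC trend subtracted (-0.34).

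Mir17hg is the host of the miR-17-92 cluster, which Myc induces. Its downstream peak (chr14:115041954-115042689) had pileups of 76 and 128 in normoxia, 96 and 71 in moderate hypoxia, and 37 and 35 in severe hypoxia, a log2 pileup of -1.83 ± 0.18 (adjusted p = 7.94e-09). Its log2 fold of -0.33 ± 0.18 was not called (adjusted p = 0.237), and the upstream peak gave -1.51 ± 0.16 by pileup (adjusted p = 3.04e-08) and -0.04 ± 0.14 by fold (adjusted p = 0.880).

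Mir99ahg, host of miR-99a and let-7c, had 3 member peaks that differed in direction. The first (chr16:77236882-77237390) was higher at <0.1% O2 by 0.41 ± 0.11 (adjusted p = 0.0341) and the third (chr16:77593848-77595122) gave -0.45 ± 0.13 (adjusted p = 0.0453), both log2 folds. The call on the first was kept without 21% O2 replicate 1 and lost without each of the other libraries, with differences between 0.26 and 0.44, and it was lost with the GC trend subtracted (0.36). That on the third was lost whichever library was left out, with differences between -0.47 and -0.43. The middle one differed by -0.05 ± 0.10 (adjusted p = 0.756).

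Mir210 was among the strongest members, with fold ranks of 98.9 and 99.7 in normoxia, 95.1 and 98.5 in moderate hypoxia, and 99.3 and 99.3 in severe hypoxia. Its pileups were 288 and 438 in normoxia, 649 and 622 in moderate hypoxia, and 707 and 584 in severe hypoxia, and the log2 pileup was 0.43 ± 0.06 higher at <0.1% O2 (adjusted p = 4.25e-06). The log2 fold differed by -0.01 ± 0.07 (adjusted p = 0.921), and its summit window holds 1 CACGT.

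The noncoding genes linked to hypoxia in earlier work had 11 member peaks, of which 0 were higher and 1, the upstream Malat1 peak, was lower by fold at <0.1% O2 (limma, with 3 at an unadjusted p under 0.05). By pileup 6 were higher and 3 lower. Both peaks with Neat1 in reach (chr19:5845223-5846031 and chr19:5846362-5847112, nearest to Frmd8os) had fold ranks under 4 in every library and pileups 0.42 and 0.44 higher (adjusted p = 0.00126 and 0.0122). The first log2 fold was 0.33 ± 0.13 and the second 0.28 ± 0.14, neither called (adjusted p = 0.106 and 0.212).

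The imprinted genes Kcnq1ot1, Airn and Peg13 had 3 member peaks and no call by fold at any contrast (limma), with 1 at an unadjusted p under 0.05 at <0.1% O2. Kcnq1ot1 (chr7:143296183-143297025) had ranks of 76.1 and 72.8 in normoxia, 67.8 and 75.1 in moderate hypoxia, and 75.5 and 63.7 in severe hypoxia, and a log2 difference of -0.06 ± 0.09 at <0.1% O2 (adjusted p = 0.683). Jpx and Ftx, of the X-inactivation centre, and Firre, an X-linked gene outside it, had 4 peaks with no call by fold, and with 2 at an unadjusted p under 0.05 at <0.1% O2. Jpx (chrX:103492638-103494190), an activator of Xist, had pileups of 86 and 135 in normoxia, 69 and 81 in moderate hypoxia, and 73 and 52 in severe hypoxia. Its log2 pileup was -1.16 ± 0.17 (adjusted p = 3.11e-06) and its log2 fold -0.49 ± 0.15 (adjusted p = 0.0523).

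A list of 17 RNA polymerase III and small nuclear RNA genes, which leaves out the 5S gene n-R5s213 and the U1 and U2 genes described above, had 7 peaks and no call by fold, with 1 at an unadjusted p under 0.05 at <0.1% O2. Among them were Rn7sk, the inhibitor of the elongation factor P-TEFb, with a log2 fold of -0.23 ± 0.13 (adjusted p = 0.260), and Rn7s2, a signal recognition particle RNA, with 0.09 ± 0.08 (adjusted p = 0.505). Of 7 peaks at p53- and growth-linked genes 1 was lower by fold at <0.1% O2, a Dleu2 peak (chr14:61682108-61682916) with ranks of 12.7 and 20.8 in normoxia, 3.01 and 6.36 in moderate hypoxia, and 3.89 and 1.48 in severe hypoxia. Its log2 fold was -0.69 ± 0.17 (adjusted p = 0.0254), and the call was lost without 21% O2 replicate 2 (-0.58), without either severe library (-0.82 and -0.55) and with the GC trend subtracted (-0.55). The peaks of Trp53cor1, the lincRNA-p21 gene, did not pass by fold and were 0.48 and 0.44 higher by log2 pileup (adjusted p = 0.00507 and 0.00792). The neural and developmental genes had 4 peaks and no call by fold, with 1 at an unadjusted p under 0.05 at <0.1% O2.

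The CpG content of a member went with the direction of its change under severe hypoxia. In 448 members with a CpG ratio under 0.2 the median log2 difference was 0.09 by fold and 0.26 by pileup, with 59 called higher and 14 lower by fold (13.2% and 3.13%, against 6.74% and 6.15% of all peaks). In the 719 from 0.2 to 0.4 it was 0.0078 and 0.022, and in the 275 from 0.4 to 0.6 it was -0.013 and -0.066. In the 164 from 0.6 to 0.8 it was -0.072 and -0.25, and in the 86 from 0.8 up it was -0.12 and -0.23, with 3 higher and 13 lower by fold (3.49% and 15.1%).

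Members with a CpG ratio of at least 0.6 had median pileup ranks of 64.3 and 64.5 in normoxia, 58.5 and 61.2 in moderate hypoxia, and 52.9 and 53.8 in severe hypoxia. Their fold ranks were 55.8 and 56.2, 55.1 and 57.7, and 49.7 and 49.7, so by fold there was no fall at 1% O2. Of these 250 members 10 were higher and 21 lower by fold (4% and 8.4%, against 6.74% and 6.15% of all peaks), and 23 higher and 104 lower by pileup, which is 41.6% lower where 24.3% of all peaks were. Coding promoter peaks of 0.8 up had medians of -0.10 and -0.38, and those under 0.2 of 0.082 and 0.16, and peaks away from promoters had -0.089 and -0.24 from 0.8 up and 0.075 and 0.23 under 0.2. The order by CpG ratio was thus not particular to noncoding promoters. The hypoxic libraries were also the deeper ones, and the part of depth in this order was not tested. With the GC trend subtracted the members of at least 0.6 had 12 higher and 15 lower by fold and a median of -0.057, against -0.079 without the correction. The 1442 under 0.6 went from 119 higher and 58 lower with a median of 0.026 to 97 and 71 with -0.0039.

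**Figure D5:**
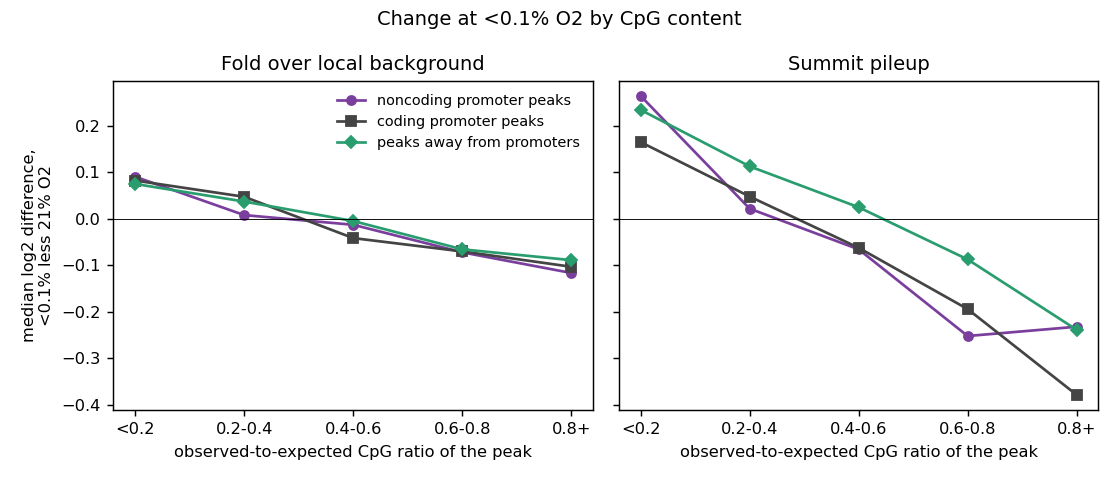
Median log2 difference at <0.1% less 21% O2 by fold and by summit pileup, in 5 ranges of the observed-to-expected CpG ratio, for noncoding promoter peaks, coding promoter peaks and peaks away from promoters. Noncoding promoter peaks go from 0.26 by pileup under a ratio of 0.2 to -0.23 at 0.8 and above.

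The short motifs were counted in 300 bp around the summit on both strands. TGANTCA, the AP-1 site, was present in 27.0% of the members, 6.61% of coding promoter peaks and 34.8% of peaks away from promoters. It was in 46.5% of the 129 members higher at <0.1% O2, in 13.9% of the 79 lower and in 25.9% of those not called, and at 1% O2 in 41.7% of the 72 higher, 26.8% of the 41 lower and 26.3% of those not called. ACGTG was in 18.4% of members, 26.8% of coding promoter peaks and 16.0% of peaks away from promoters, and in 17.8% of the members higher and 20.3% of those lower at <0.1% O2. At 1% O2 the order was the other way, with 20.8% of those higher and 12.2% of those lower. An E-box CACGTG also holds ACGTG and is counted with it. The E-box alone was in 5.43% of those higher and 10.1% of those lower at <0.1% O2, and in 12.5% and 0% at 1% O2.

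The GC box GGGCGG was in 24.1% of members against 69.1% of coding promoter peaks, and in 14.7% of those higher and 32.9% of those lower at <0.1% O2. At 1% O2 the order turned, with 19.4% of those higher, 12.2% of those lower and 24.6% of those not called. The ETS core CCGGAAG was in 5.38% of members and 18.1% of coding promoter peaks, with 1 of the 129 higher and 10 of the 79 lower members at <0.1% O2 holding it. At 1% O2 it was in 2 of the 72 higher and 2 of the 41 lower. The CTCF core AGGGGGC was in 8.33% of members. A motif match is a description of letters and not a bound site, and the groups compared also differed in CpG content.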

How the data were processed

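ATACseq was carried out by the authors on fixed GL261 cells, 6 libraries in all. The authors trimmed the reads with Trimmomatic, aligned them with Bowtie2 2.2.5, removed duplicates (Picard) and mitochondrial reads, filtered on mapping quality and called peaks in each library with MACS2 2.1.1.2 without a control, which yielded the deposited fold (a ratio of the summit pileup to the local background, each plus 1) and the deposited −log10 p and −log10 q values. From the deposited fold and −log10 p the whole-number pileup and the background were recovered for 100% of peaks in every library (tolerance 0.001). Consensus peaks shared over 200 bp. The log2 fold was quantile-normalised and fitted with limma 3.58.1 (R 4.3.3, trend) over 28432 peaks, with Benjamini-Hochberg adjustment. Group medians were compared by two-sided exact permutation over libraries. A script was tested on simulated data. The members, gene lists and tests were chosen with earlier results of these data known.

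Named peaks were the 8 largest rises and falls among calls with the same sign by pileup, listed genes and the 10 highest members, and the small nuclear RNA loci were chosen after their values were seen. Depth limits weak peaks, and its precision is that of the pileups given. Alternatives were the pileup, a GC correction, median scaling, other windows and overlaps, a replicate block and leaving out each library. Sequences were read from GRCm38.p6 and no peak lay beyond a chromosome end there. Sequences of chromosome 18 are not printed, and 53 members lie there.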

Additional observations from a re-analysis of the deposited data

Results flagged for a closer look

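At 3 members the change under severe hypoxia differed from that under moderate hypoxia by the test of the difference itself, limma with Benjamini-Hochberg adjustment over 28432 peaks. The log2 fold differed by -0.97 at Gm37477 (adjusted p = 0.034), in an intron of Zic4, and by -0.75 at Gm15247 (adjusted p = 0.046), in an intron of Mid1. At the pseudogene Gm14857 it differed by 0.79 (adjusted p = 0.035), the severe libraries being higher. All 3 calls were lost when a 1% or <0.1% O2 library was left out, with differences of -1.04 to -0.90, -0.78 to -0.72 and 0.68 to 0.90, and with the GC trend subtracted, with -0.83, -0.71 and 0.70. The call at Gm15247 was also lost with replicate number as a block in the fit. Groups of 2 libraries were not tested for an outlying library.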

How the results depend on the processing

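Each library left out in turn moved every count of calls. The shares of all peaks called in those fits were not counted. The number higher at 1% O2 ran from 2 to 91 and lower from 0 to 27, higher at <0.1% O2 from 13 to 110 and lower from 5 to 49, and between the hypoxia levels from 0 to 6 and from 0 to 8. The number of members itself ran from 1704 to 1805, since a lone library has no replicate to intersect, and within 500 bp of a start site it was 1011. The median difference of the members ran from -0.023 to -0.011 at 1% O2, from 0.0035 to 0.014 at <0.1% O2 and from 0.029 to 0.039 between them, and less coding promoter peaks from 0.0070 to 0.034, from 0.11 to 0.14 and from 0.099 to 0.12. The difference in level between hypoxia and normoxia ran from 0.476 to 1.47 ranks, and by pileup rank it was 0.335.

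Among the other settings, the summit pileup called 288 higher and 335 lower at 1% O2, 434 and 352 at <0.1% O2 and 257 and 122 between the levels. With the GC trend subtracted, a setting chosen after seeing the data, the pileup gave 296 and 338 (17.5% and 19.98%, against 18.8% and 17.8% of all peaks), 370 and 392 (21.9% and 23.2%, against 23.5% and 21.5%), and 132 and 83 (7.80% and 4.91%, against 6.65% and 4.13%). Mean ranks moved by 10 points with no overlap of libraries gave 317 and 330, 369 and 308, and 300 and 224. As shares these were 18.7% and 19.5%, 21.8% and 18.2%, and 17.7% and 13.2%, against 16.6% and 18.5%, 19.3% and 19.9%, and 15.8% and 15.2% of all peaks. A log2 difference of at least 0.6 left 34 and 18 at 1% O2 (2.01% and 1.06%, against 1.97% and 1.04% of all peaks) and 56 and 28 at <0.1% O2 (3.31% and 1.65%, against 2.67% and 2.03%), and a 500 bp window left 38 and 23 at 1% O2 (3.76% and 2.27% of its members, against 3.97% and 2.18% of all peaks) and 65 and 57 at <0.1% O2 (6.43% and 5.64%, against 6.74% and 6.15%). Between the hypoxia levels the calls were 0 and 0 with the GC trend subtracted, with or without the block, and 0 and 0 without the trend and with robust eBayes. They were 5 and 4 with median scaling. The median difference of the members was -0.025 by pileup, -0.0078 with the GC trend subtracted, -0.031 with median scaling and -0.026 in the 500 bp window at 1% O2. It was -0.0099 with the GC trend subtracted and -0.013 in the 500 bp window at <0.1% O2. Between the levels it was 0.052, -0.0042, 0.040 and 0.021 in the order given for 1% O2. Less coding promoter peaks, it was -0.0062 in the 500 bp window at 1% O2, 0.24 by pileup, 0.052 with the GC trend subtracted and 0.099 in the 500 bp window at <0.1% O2, and 0.22 by pileup and 0.031 with the GC trend subtracted between the levels. The cause was not tested.

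Replicate numbers did not pair the libraries: deviations of same-numbered libraries correlated at -0.055, -0.029 and 0.022. With the replicate block, the calls between the hypoxia levels were 2 higher and 1 lower, and of 40 named called peaks 37 kept their call, the 3 lost being BC039966 at 1% O2 (-0.68), Gm15247 between the levels (-0.75) and the third Mir99ahg peak (-0.45). Of the 40, 33 kept it with the GC trend subtracted. The block with the GC trend subtracted gave the medians of the GC correction, -0.0078, -0.0099 and -0.0042, and less coding promoter peaks 0.052 and 0.031.

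Among the largest rises and falls and the listed genes the pileup turned the sign of 1 call, Snhg15 (-0.17), beside the 11 members at <0.1% O2 that were called in opposite directions. The largest named rises and falls had been picked for the same sign by pileup, so their agreement there is no support. Among named peaks not called by fold, the pileup reversed Snhg6 (-1.03), Snhg8 (-0.74), Snhg17 (-0.53), Dancr (-0.46), Snhg5 (-0.39), Mir210 (0.43), the 3′ Malat1 peak (1.21) and a Dleu2 peak (-0.34). With the GC trend subtracted Mir17hg's upstream peak became 0.17 and Mir210 0.038, and with median scaling Mir210 was 0.0078. Leaving out 1 library turned the sign at 7 named peaks that were not called, whose values then ran from -0.11 to 0.14 at Snhg6, from -0.34 to 0.026 at Snhg20, from -0.15 to 0.072 at Mir17hg's upstream peak, from -0.064 to 0.043 at Mir210, from -0.15 to 0.037 at the middle Mir99ahg peak, from -0.14 to 0.013 at Kcnq1ot1 and from -0.42 to 0.080 at the 3′ Malat1 peak. Weak peaks rest on pileups of under 20 fragments, where counting error is large.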

Other observations

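The 10 members with the highest mean fold rank were at Gm10222, Gm23935, Gm13340, Gm49708, Gm49147, 9430037G07Rik, Gm17187, Gm37494, Gm19989 and Gm35066. Among the members, 4 matched the mitochondrial genome, which has many copies in a cell and no nucleosomes. Gm10222, an unprocessed pseudogene, matched at 99.8% over 856 bp and had summit pileups of 6405 and 7162 in normoxia, 7489 and 7996 in moderate hypoxia, and 9434 and 9887 in severe hypoxia. Gm13340 matched at 97.4% over 3260 bp, Gm4076 at 95.2% over 808 bp and Gm11410 at 93.2% over 2412 bp. Reads from the mitochondrial genome and from these copies cannot be told apart in the peaks, so their values are uncertain. Mitochondrial reads were removed by the authors before peak calling.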
